A study of Mus musculus with 121 samples.

Results

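The genes of the mitochondrial respiratory chain and of the ATP synthase were followed in 6 transplanted mouse tumours after local irradiation. Members were chosen by name: every gene whose single annotated symbol begins with Nduf, Uqcr, Cox4 to Cox8 or Atp5, or is one of Sdha, Sdhb, Sdhc and Sdhd. This gave 83 gene symbols on 93 probes of 36227 on the array. Each gene was read from its brightest probe with a value on 90% or more of the arrays. Such a probe existed for 81 genes, and was missing for Cox7b2 and Ndufaf8. Ndufc2 and Uqcrq were too dim to test, so 79 members entered the tests among 12962 genes. By role these are 29 subunits of complex I, 6 assembly factors of complex I, 4 genes of complex II, 7 of complex III, 11 of complex IV, 16 of the ATP synthase, 5 isoforms tied to a tissue or to low oxygen, and 1 pseudogene.

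The respiratory chain sits in the inner mitochondrial membrane. Complexes I and II pass electrons from NADH and succinate to ubiquinone, complex III passes them to cytochrome c, and complex IV passes them to oxygen. Complexes I, III and IV pump protons across the membrane, and the ATP synthase makes ATP from the return flow. Most subunits are encoded in the nucleus, and several complex IV subunits have a second gene that is used mainly in heart and skeletal muscle.

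All tumours grew in the hind legs of male C3H/HeMs mice and received a single local dose. They are a fibrosarcoma that was induced by radiation, called the induced fibrosarcoma here, the spontaneous fibrosarcoma nfsa, mammary carcinomas mmca and mca4, and squamous cell carcinomas scc7 and nrs1. After gamma rays, 81 arrays cover 30, 50 and 70 Gy at day 1 in the induced fibrosarcoma, nfsa, mmca and mca4, and 30 or 50 Gy at day 4 to day 41 in all 6 tumours. Unirradiated arrays of this experiment are from day 1 in those 4 tumours, and in mmca also from day 9. After carbon ions, 40 arrays cover 30 Gy from hour 6 to day 42, with unirradiated arrays (hour 0) for mmca and mca4. The 54 groups hold 2 arrays (41 groups) or 3 (13 groups). Nothing in the labels ties the arrays of a group to separate mice. The p-values therefore rest on the variation among arrays, which may be technical in part. Ages are not given in the sources used here.

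Values are log2 intensities, in which a difference of 1 is a 2-fold difference. Between 9.99% and 18.6% of probes lacked a value on the gamma arrays, and between 0.541% and 4.92% on the carbon arrays. The mean level of a list of epithelial genes was 3.00 to 5.31 over the groups of mmca and mca4 and 5.90 to 6.06 in nrs1, but -0.97 to -0.70 in scc7, which is labelled a squamous cell carcinoma. In scc7 the fibroblast genes stood at 4.99 to 5.41. They stood at 4.85 to 6.19 in the induced fibrosarcoma, 5.44 to 6.10 in nfsa and 2.47 to 5.03 in mca4. The squamous genes stood at -0.14 to 2.06 in scc7 and 6.39 to 7.37 in nrs1. In the induced fibrosarcoma and nfsa they stood at -0.50 to 0.99 and -0.93 to 0.36. The mean level of skeletal muscle genes ran from -0.72 to 5.40 over the 54 groups, so the muscle signal differed between groups. In such bulk samples fewer cells of a type and less RNA per cell cannot be told apart.

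Promoter sequence is shown first because it is what some members share beyond their names. RefSeq promoters (assembly GRCm38.p6) were matched for 65 of the 81 members and searched on both strands over the 250 bases before the start. The letters CGCATGCGC, the core of the motif of NRF1 (a factor known for respiratory chain genes), were found in 7 members (10.8%) and in 1.64% of 27025 genes. CCGGAAG, the motif of ETS factors such as GABPA, was found in 12 members (18.5%) and in 7.83% of genes. CAAGATGGC, the motif of YY1, was found in 0 members and in 0.67% of genes. A match is a description of these letters and not a site shown to be bound. The members with the NRF1 letters are Atp5g2, Atp5k, Atp5l, Cox6a1, Ndufa11, Ndufa8 and Ndufaf4. Stretches upstream of 6 members that recur below are given 5′ to 3′ on the gene's strand, with motif letters found on either strand in capitals. Cox6a1 (chr5:115348959-115349130, minus strand), Atp5g2 (chr15:102671048-102671167, minus) and Atp5k (chr5:108434400-108434519, minus) hold the NRF1 letters, and Cox6a1 also holds the ETS letters on the other strand. Ndufs3 (chr2:90904722-90904841, minus) holds the ETS letters. The muscle isoform Cox8b (chr7:140900447-140900566, minus) and the catalytic subunit Atp5b (chr10:128083187-128083306, plus) hold none of these letters in the stretch shown.
Cox6a1: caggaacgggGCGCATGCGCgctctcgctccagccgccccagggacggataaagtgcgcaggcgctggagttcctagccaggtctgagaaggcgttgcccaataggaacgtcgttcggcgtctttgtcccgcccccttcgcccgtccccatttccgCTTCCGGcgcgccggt
Atp5g2: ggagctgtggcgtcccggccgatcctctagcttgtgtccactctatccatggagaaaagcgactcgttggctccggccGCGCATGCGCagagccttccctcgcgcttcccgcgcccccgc
Atp5k: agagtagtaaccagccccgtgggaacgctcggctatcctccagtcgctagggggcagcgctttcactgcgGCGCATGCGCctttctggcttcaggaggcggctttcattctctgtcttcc
Ndufs3: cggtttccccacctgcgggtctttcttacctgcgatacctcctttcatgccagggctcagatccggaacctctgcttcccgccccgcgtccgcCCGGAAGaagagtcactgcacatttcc
Cox8b: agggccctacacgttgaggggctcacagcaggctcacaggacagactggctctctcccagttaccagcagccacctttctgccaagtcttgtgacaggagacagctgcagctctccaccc
Atp5b: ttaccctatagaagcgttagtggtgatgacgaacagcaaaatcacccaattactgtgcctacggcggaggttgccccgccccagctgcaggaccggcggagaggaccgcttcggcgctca

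The members are among the brightest genes on the array. Their median log2 intensity was 6.04, against 2.24 for all genes tested, and 65 of them lay in the brightest 20% of genes. This bears on every count below, because bright genes shifted together between some groups. The comparisons were therefore also run after quantile normalization. Values are as deposited where nothing else is said, and a change is called held where its sign and call were the same in the deposited values and in both forms of quantile normalization. Some members are dim: Uqcr10 had a mean of -0.30, with 11.6% of genes dimmer, and Cox4i2 a mean of -0.78, with 4.34% dimmer. Uqcrc1, read from its only probe, had a mean of 0.67, with 26.1% dimmer. The brightness of a probe is no measure of amount, so levels of different genes are not set against each other.

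One day after gamma rays, the members as a whole did not move in a single direction. Over the mean of the 3 doses and 4 tumours, 14 of 77 members tested rose and 16 fell, where 59.4% of all genes changed. Their median change was -0.01 on the log2 scale, against -0.04 for all genes. Of these calls 14 rises and 9 falls held (50.1% of all genes had a change that held). In complex I, 6 of 29 subunits rose and 8 fell. Ndufs3, a core subunit of the arm that passes electrons to ubiquinone, rose by 0.39 ± 0.06 (SE, 24 irradiated against 8 unirradiated arrays, adjusted p = 2.88e-08). The assembly factor Ndufaf6 fell by 0.46 ± 0.06 (adjusted p = 1.46e-09). In complex II, 3 of 4 genes rose, among them the iron-sulphur subunit Sdhb by 0.34 ± 0.05 (adjusted p = 2.75e-07).

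In complex III, 0 of 7 genes rose and 2 fell. These were the small subunit Uqcr10 (-0.57 ± 0.05, adjusted p = 1.81e-16) and the core protein Uqcrc1 (-0.45 ± 0.05, adjusted p = 5.13e-11). In complex IV, 1 of 10 tested genes rose and 1 fell. In the ATP synthase, 2 of 16 rose and 1 fell, with the shaft subunit Atp5c1 higher by 0.39 ± 0.06 (adjusted p = 2.83e-07). Of the isoforms, the muscle form Cox7a1 rose by 0.53 ± 0.17 (adjusted p = 0.00667) and Cox4i2, a form known from lung and from low oxygen, fell by 0.69 ± 0.08 (adjusted p = 5.97e-12). Each of the 8 genes named here kept its call without any 1 array.

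The tumours differed in these day-1 changes. The change differed between the 4 tumours for 35 of 77 members by a moderated F test, where 55.9% of all genes differed, and 29 of the 35 held (49.1% of all genes). In the induced fibrosarcoma, 7 of 78 members rose and 20 fell (50.9% of all genes changed), in mca4 10 of 78 rose and 19 fell (42.8%), in nfsa 4 of 79 rose and 9 fell (29.0%), and in mmca 19 of 79 rose and 2 fell (33.1%). The median change was -0.15 in the induced fibrosarcoma, -0.06 in mca4, -0.02 in nfsa and 0.15 in mmca. After quantile normalization 13 rose and 12 fell in the induced fibrosarcoma (48.2% of all genes changed), 12 and 19 in mca4 (44.1%), 9 and 9 in nfsa (27.0%), and 38 and 0 in mmca (37.0%). The unirradiated group has only 2 arrays, and the counts leaned on them. Without unirradiated replicate 1 the count in the induced fibrosarcoma fell from 27 to 16. Leaving out unirradiated replicate 1 or 2 gave counts of 13 or 11 in place of 21 in mmca, 5 or 1 in place of 13 in nfsa, and 17 or 18 in place of 29 in mca4. In nfsa, leaving out replicate 2 of the 30 Gy group gave 8.

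Cox5a, a nuclear subunit of complex IV, differed most between tumours (F = 24.7, adjusted p = 2.51e-09). In mmca its unirradiated arrays read 3.07 and 3.29, and the 6 irradiated arrays had a lowest value of 3.81, a median of 3.84 and a highest of 4.10. The arrays did not overlap, and the difference was 0.69 ± 0.11 (adjusted p = 3.87e-07). In the induced fibrosarcoma the unirradiated arrays read 4.67 and 4.78, against 4.27, 4.32 and 4.67 (lowest, median and highest) after irradiation. Among the unirradiated day 1 arrays Cox5a was lowest in mmca, the tumour in which it rose. Without irradiation, Cox5a was also called higher in mmca at day 9 than at day 1. In the carbon experiment its unirradiated means were 4.01 in mmca and 4.08 in mca4. The part of these low day 1 arrays in the mmca rise was not tested. After gamma rays the day 1 change of Cox5a was -0.34 in the induced fibrosarcoma and -0.48 in mca4. The call in the induced fibrosarcoma was lost without unirradiated replicate 2 (-0.28, adjusted p = 0.103), and that in mca4 without unirradiated replicate 1 (-0.29, adjusted p = 0.0921).

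Uqcrc1 followed with F = 18.9. Its unirradiated arrays read 1.40 and 1.67 in the induced fibrosarcoma, 1.37 and 1.50 in mca4, and 0.40 and 0.59 in mmca. After irradiation the medians were nearly level, at 0.66, 0.65 and 0.62. The change was -0.84 ± 0.11 in the induced fibrosarcoma (adjusted p = 8.72e-10), -0.81 ± 0.11 in mca4 (adjusted p = 4.06e-09) and 0.14 in mmca. Cox4i2 behaved alike (F = 13.6), with unirradiated arrays at -0.09 and 0.19 in the induced fibrosarcoma and 0.19 and 0.34 in mca4 but -0.84 and -0.77 in mmca. It fell by 1.09 ± 0.15 in the induced fibrosarcoma (adjusted p = 1.22e-08) and by 1.26 ± 0.15 in mca4 (adjusted p = 4.74e-10). For both genes the induced fibrosarcoma and mca4 stood above mmca before irradiation, and the irradiated arrays lay closer together. Ndufa11, an accessory subunit of complex I, rose in mmca by 0.84 ± 0.12 (adjusted p = 8.24e-08, F = 17.1), from unirradiated arrays at 4.65 and 4.97 to a median of 5.73.

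Before irradiation mca4 and mmca differed widely in the gamma experiment and hardly in the carbon experiment. In the gamma experiment 43 of 78 members were higher in mca4 and 4 were lower, where 51.8% of all genes differed, and 38 and 4 held (48.2% of all genes). Atp5b read 3.64 and 4.11 in mca4 against 5.18 and 5.11 in mmca, a difference of -1.27 ± 0.16 (adjusted p = 3.83e-10). In the carbon experiment 0 of 79 members were higher and 1 was lower (Sdha), where 2.71% of all genes differed. That call did not hold. On the arrays themselves, Atp5b read 5.50 and 5.46 in carbon mca4 and 5.47 and 5.58 in carbon mmca. Whether the unirradiated tumours of the experiments differed in handling was not tested. Between the fibrosarcomas, 5 of 79 members were higher in nfsa and 28 were lower than in the induced fibrosarcoma (45.5% of all genes differed). After quantile normalization 17 were higher and 20 lower, again beside 45.5% of all genes. Sdhb was higher by 0.90 ± 0.13 (adjusted p = 7.58e-08), and Cox6b1, a peripheral complex IV subunit, was lower by 0.77 ± 0.14 (adjusted p = 2.81e-06).

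**Figure D1:**
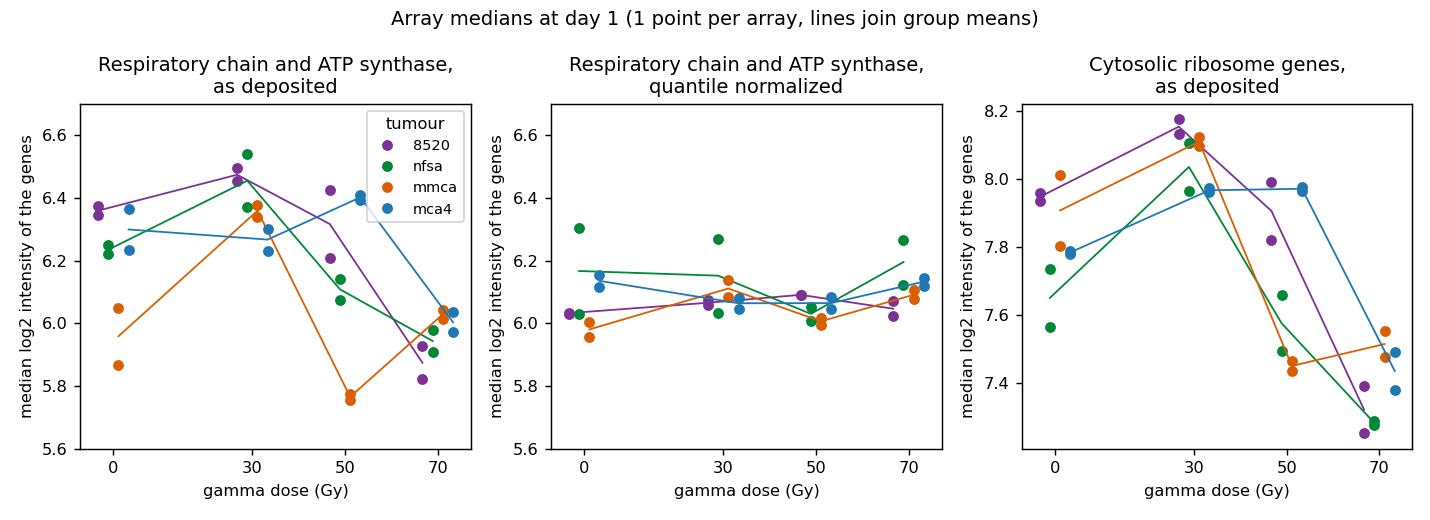
Median log2 intensity on each gamma array at day 1 against dose in Gy for 4 tumours, of the members as deposited, of the members after quantile normalization, and of the cytosolic ribosome genes as deposited; each point is 1 array and lines join group means. As deposited, the 70 Gy arrays of each tumour lie below its 30 Gy arrays in both gene lists, and after quantile normalization the members of both doses lie together.

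The members stood lower at 70 than at 30 Gy as deposited, and not after quantile normalization. Between 30 and 70 Gy at day 1, 4 of 78 members were higher at 70 Gy and 63 were lower, where 50.2% of all genes differed and 26.5% were lower. The median difference was -0.50, against -0.01 for all genes. After quantile normalization 19 were higher and 8 lower (56.7% of all genes differed) with a median of -0.03, and 4 and 8 held (31.5% of all genes). The ribosomal proteins of the cytosol, another bright list, moved alike: 2 of 49 were higher, 42 were lower, and the median was -0.67 before and -0.02 after quantile normalization. The brightest 20% of all genes had a median of -0.23. Against unirradiated arrays, over 4 tumours, 47 members rose and 10 fell at 30 Gy (63.1% of all genes changed), 9 rose and 8 fell at 50 Gy (43.6%), and 3 rose and 50 fell at 70 Gy (61.0%). After quantile normalization these counts were 24 and 17 at 30 Gy (62.6% of all genes) and 27 and 12 at 70 Gy (60.6%). A few members stood apart from the shift in every form. Ndufs1, the largest iron-sulphur subunit of complex I, was higher at 70 than at 30 Gy by 0.42 ± 0.08 (adjusted p = 2.91e-06), Atp5b by 0.34 ± 0.08 (adjusted p = 2.99e-04), and Uqcr10 by 0.28 ± 0.06 (adjusted p = 7.90e-05). The complex I subunit Ndufb2 was lower by 0.79 ± 0.10 (adjusted p = 1.27e-09) and remained lower, at -0.63, after quantile normalization. The 4 genes named here kept their calls without any 1 array. These SEs also rest on arrays within groups and not on the spread among the 4 tumours. Other calls changed sign, such as that of Atp5a1, the alpha subunit of the ATP synthase, which went from -0.25 to 0.39 after quantile normalization.

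Later after gamma rays, at day 4 to day 41, the share of members that fell was above that of all genes in the induced fibrosarcoma and mca4, both as deposited and after quantile normalization. In mmca it was above that of all genes only as deposited, and in nfsa it was slightly below in both forms. Of 79 members in the induced fibrosarcoma, 7 rose and 48 fell, where 67.7% of all genes changed and 39.5% fell. The median was -0.32, against -0.10 for all genes. In mca4, 7 of 78 rose and 35 fell (64.0% of all genes changed, 34.7% fell), with a median of -0.24 against -0.05. In nfsa, 12 of 79 rose and 26 fell (60.3% changed, 35.0% fell), with a median of -0.13 against -0.07. In mmca, 2 of 79 rose and 26 fell (42.4% changed, 16.8% fell), with a median of -0.17 against 0.04. After quantile normalization 35 of 79 members fell in the induced fibrosarcoma (36.5% of all genes fell), 32 of 78 in mca4 (29.9%), 34 of 79 in nfsa (45.8%) and 18 of 79 in mmca (34.5%). The falls that held were 30 in the induced fibrosarcoma, 26 in mca4, 23 in nfsa and 6 in mmca. Of all genes, 60.6%, 57.8%, 48.8% and 31.6% had a change in either direction that held, in the same order. These shares include rises, so they are not the share of falls that held. Without unirradiated day 9 replicate 2, the count of calls in mmca was 5 in place of 28, and without unirradiated replicate 1 it was 33 in place of 55 in the induced fibrosarcoma.

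Late mmca was set against its unirradiated arrays of day 9. In the induced fibrosarcoma, nfsa and mca4 the late arrays could be set only against unirradiated arrays of day 1, the same arrays that serve the day-1 comparisons. Unirradiated mmca changed between day 1 and day 9: 6 of 79 members rose and 3 fell, where 21.2% of all genes changed. After quantile normalization 22 rose and 1 fell (24.4% of all genes), and in the form fixed on probes with a value on every array 16 rose and 1 fell. With 1 array left out, the count as deposited was 5 without day 1 replicate 1, 3 without day 1 replicate 2, and 4 without either day 9 array. Taking the mmca change away from each late change, as a value with no test, left 48 of the 48 lower members of the induced fibrosarcoma, 26 of 26 of nfsa and 34 of 35 of mca4 below 0. Of the higher members, 7 of 7, 7 of 12 and 7 of 7 stayed above 0, in the same order. The medians were then -0.45, -0.23 and -0.35. The median mmca change of the members was 0.10, so taking it away moved most values down and favoured falls staying below 0. Genes of immune cells were also higher at late times. Over the late arrays of nfsa the mean level of 5 genes of T and NK cells was 1.00 to 3.10, against -0.45 and -0.29 in its unirradiated arrays, and all 5 genes rose. The values for the induced fibrosarcoma were 0.33 to 3.05 against -0.42 and -0.22, and 4 of 5 rose. The part of this in the members' changes was not tested.

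**Figure D2:**
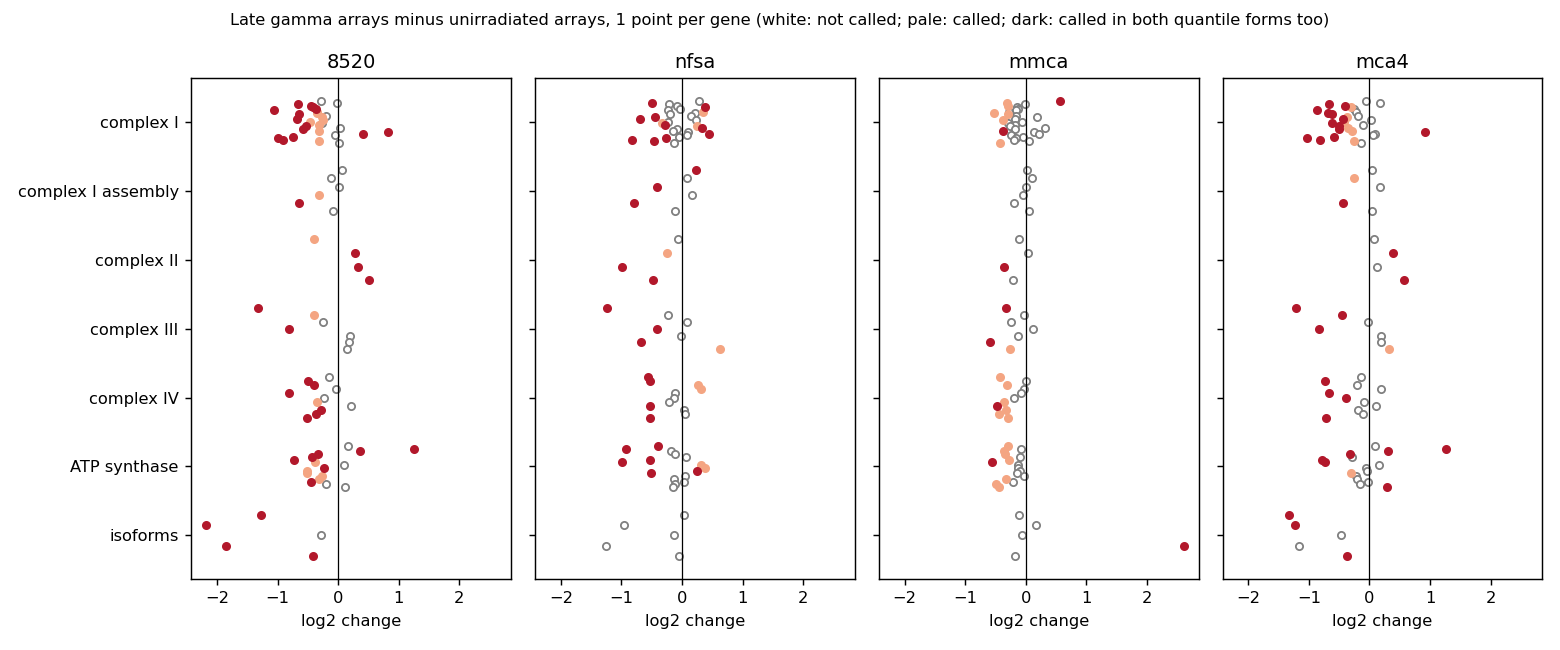
Log2 change of each member in the late gamma comparison (late irradiated minus unirradiated arrays) in 4 tumours, 1 point a gene, in rows by role; white points were not called, pale points were called as deposited, and dark points held in both forms of quantile normalization. Most dark points of complex I lie below 0 in the induced fibrosarcoma and mca4, with Ndufs1 to the right, and the complex II points lie mostly above 0 in the induced fibrosarcoma and below 0 in nfsa.

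The late counts by complex are to be read beside the share of all genes that fell. That share was 39.5% in the induced fibrosarcoma, 34.7% in mca4, 35.0% in nfsa and 16.8% in mmca. Complex I is the largest of the lists, and in nfsa its share of falls was below that of all genes. In the induced fibrosarcoma, 2 of 29 complex I subunits rose and 20 fell, in mca4 1 rose and 18 fell, in nfsa 5 rose and 8 fell, and in mmca 1 rose and 7 fell. Ndufs7, a core iron-sulphur subunit, had unirradiated arrays at 6.55 and 6.57 in mca4 and 8 late arrays between 5.22 and 5.88, with a median of 5.47. The arrays did not overlap, and Ndufs7 fell by 1.03 ± 0.11 (adjusted p = 2.32e-13). Ndufs1 moved the other way in the same tumours. It read 3.77 and 3.78 unirradiated in mca4 against 4.53 to 4.84 late (median 4.74), and 3.31 and 3.41 in the induced fibrosarcoma against 3.90 to 4.58 (median 4.10). It rose by 0.92 ± 0.12 in mca4 (adjusted p = 6.22e-10) and by 0.82 ± 0.12 in the induced fibrosarcoma (adjusted p = 9.22e-09). Ndufs1 and Ndufs7 thus moved in opposite directions although both belong to the electron path of 1 complex. Ndufs3 rose in the induced fibrosarcoma (0.40 ± 0.11, adjusted p = 0.00122) and in nfsa (0.44 ± 0.11, adjusted p = 3.75e-04).

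Complex II, which takes electrons from the citrate cycle, differed between tumours. In the induced fibrosarcoma, 3 of 4 genes rose and 1 fell, in mca4 2 rose and 0 fell, and in nfsa 0 rose and 3 fell. The median was 0.30, 0.26 and -0.36. Sdhd, a membrane anchor, rose by 0.51 ± 0.13 in the induced fibrosarcoma and by 0.57 ± 0.13 in mca4. These calls were lost without unirradiated replicate 1 in the induced fibrosarcoma (0.36, adjusted p = 0.0642) and without unirradiated replicate 2 in mca4 (0.21, adjusted p = 0.273). Sdhc, the other anchor, read 4.76 and 5.03 in unirradiated nfsa and 3.49 to 4.69 in the 12 late arrays, with a median of 3.88. It fell by 0.99 ± 0.13 (adjusted p = 5.00e-10), with no overlap. Of 15 other citrate cycle genes, 8 rose and 2 fell in the induced fibrosarcoma, 8 rose and 1 fell in mca4, and 1 rose and 6 fell in nfsa. Of all genes, 67.7%, 64.0% and 60.3% changed and 39.5%, 34.7% and 35.0% fell, in the same order. The citrate cycle falls in nfsa were thus near the share of all genes. The differences between tumours at late times were not tested.

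In complex III, 0 of 7 genes rose and 3 fell in the induced fibrosarcoma, 1 rose and 3 fell in mca4 and in nfsa, and 0 rose and 3 fell in mmca. Uqcr10 fell in all 4 tumours and was the only member whose fall held in all 4. The other members lower in all 4 as deposited were Atp5g1, Atp5g2 and Cox8a. Unirradiated Uqcr10 read 0.93 and 0.98 in the induced fibrosarcoma, 1.20 and 0.90 in nfsa, and 0.60 and 0.76 in mca4. Late arrays lay at -0.54 to -0.22 in the induced fibrosarcoma (median -0.33), -0.36 to 0.08 in nfsa (median -0.25) and -0.65 to -0.29 in mca4 (median -0.59). No late array reached an unirradiated one. The change was -1.32 ± 0.09 in the induced fibrosarcoma (adjusted p = 3.45e-20), -1.24 ± 0.09 in nfsa (adjusted p = 3.62e-19) and -1.22 ± 0.10 in mca4 (adjusted p = 3.09e-18).

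These Uqcr10 values depend on which unirradiated arrays are used. Unirradiated mmca read 0.49 and 0.64 at day 1 but -0.10 and -0.19 at day 9, a fall of 0.71 ± 0.12 without irradiation (adjusted p = 7.33e-06). The unirradiated carbon arrays read -0.77 and -0.75 in mmca and -0.73 and -0.77 in mca4, below the late gamma arrays of the tumours given above. With the unirradiated mmca change taken away, the late Uqcr10 change was -0.61 in the induced fibrosarcoma, -0.53 in nfsa and -0.51 in mca4. A second, dimmer Uqcr10 probe (mean -1.95) kept 0 of the 13 calls of the first and was called in the opposite direction in 5. For Atp5g1 a second probe was called in the opposite direction in 9 of 13. A second Ndufs3 probe (mean 4.23) kept 3 of the 9 calls of the first and was called in the opposite direction in 0. Of 10 members with a second probe, 8 had one with a value on 90% or more of the arrays, which was not so for Atp5c1 and Uqcrc2. Over these 8, 15 of 70 calls were kept and 18 were opposite.

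Uqcrfs1, the Rieske iron-sulphur protein of complex III, fell in nfsa and mmca. In nfsa it read 6.17 and 6.11 unirradiated and 5.24 to 6.01 late (median 5.40), without overlap, and fell by 0.68 ± 0.11 (adjusted p = 3.17e-07). In mmca it read 6.38 and 6.46 at day 9 without irradiation and 5.53 to 6.13 after it (median 5.87), and fell by 0.59 ± 0.12 (adjusted p = 4.09e-05). In complex IV, 0 of 11 genes rose and 7 fell in the induced fibrosarcoma and in mmca, 0 rose and 4 fell in mca4, and 2 rose and 4 fell in nfsa. The falls in mca4 and nfsa were close to the shares of all genes that fell, 34.7% and 35.0%. Cox5a fell in the induced fibrosarcoma by 0.50 ± 0.10 (adjusted p = 1.39e-05), in nfsa by 0.53 ± 0.10 (adjusted p = 3.95e-06) and in mca4 by 0.74 ± 0.10 (adjusted p = 3.32e-09). In mmca only 1 of the 7 complex IV falls held. Cox7c, a small subunit, was lower there by 0.44 ± 0.12 (adjusted p = 0.00226 by limma) as deposited and by 0.16 after quantile normalization (adjusted p = 0.25).

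**Figure D3:**
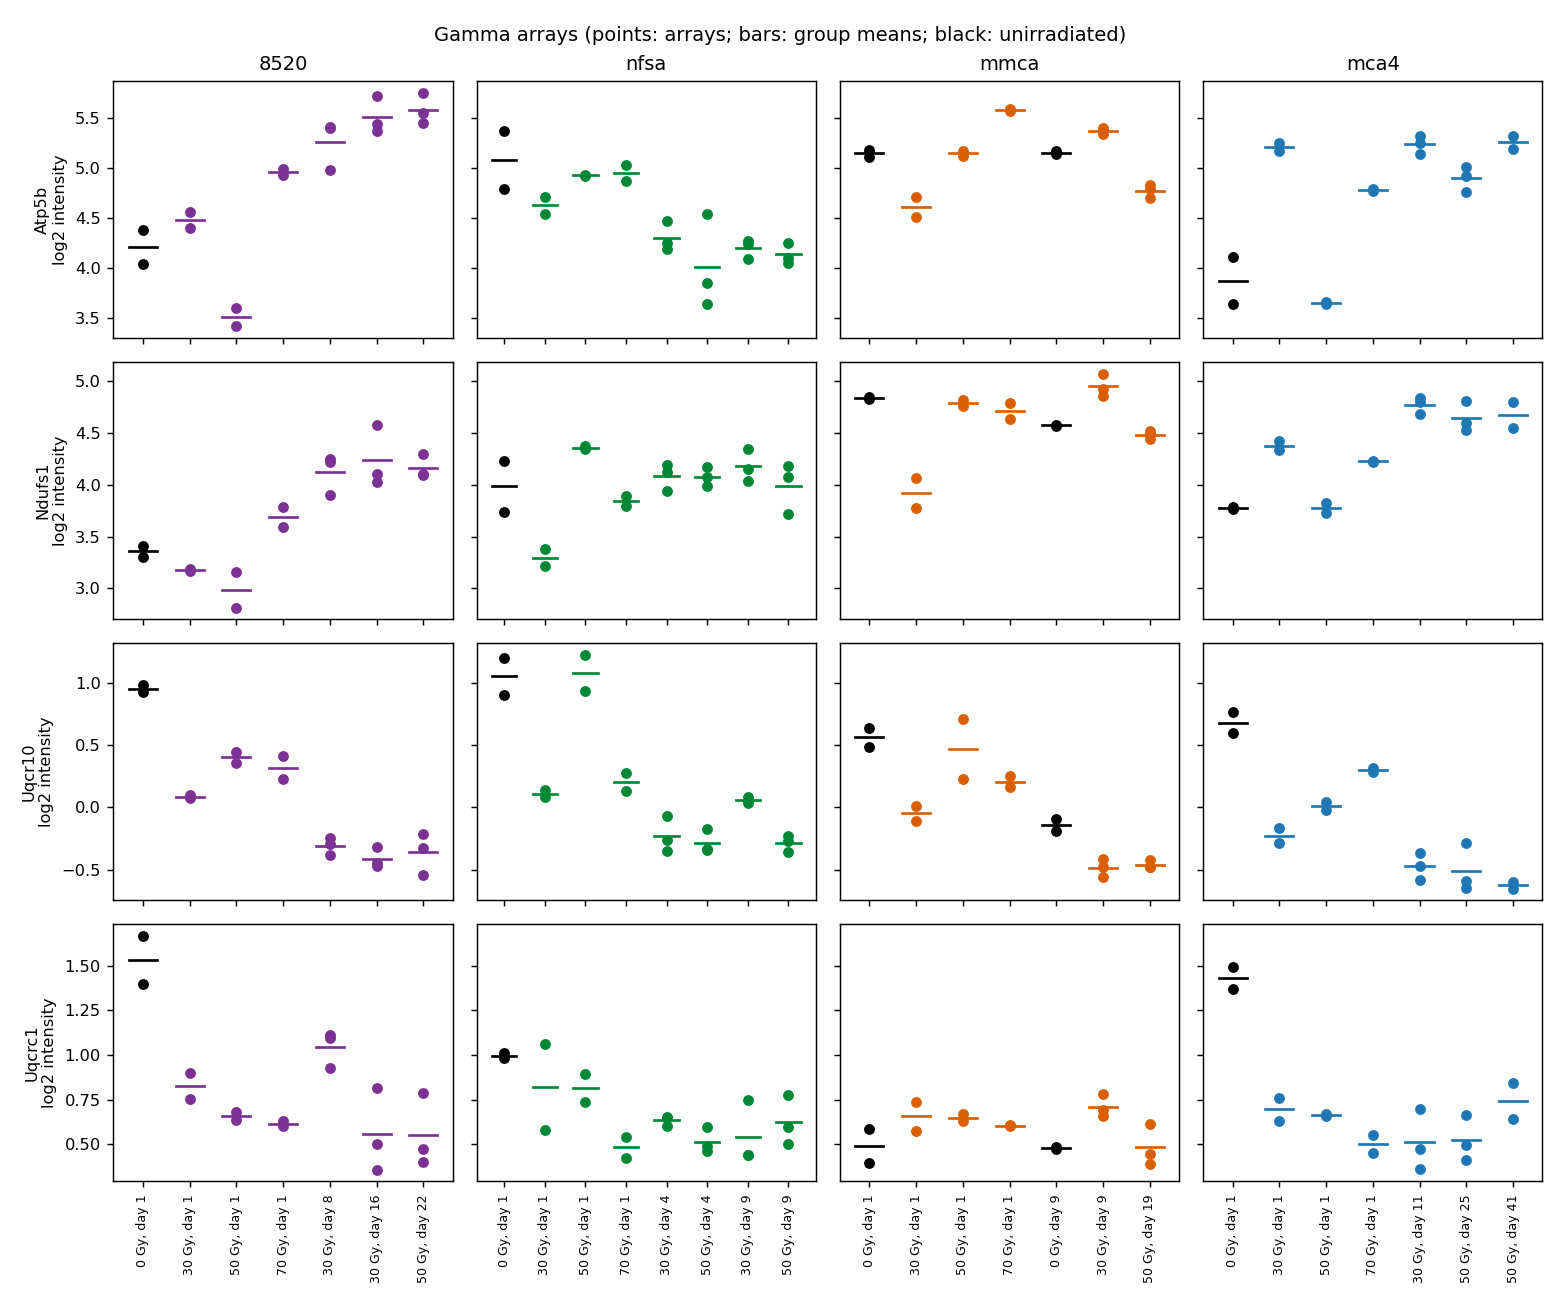
Log2 intensity of Atp5b, Ndufs1, Uqcr10 and Uqcrc1 (rows of panels) on every gamma array of 4 tumours (columns), by dose and day; points are arrays, bars are group means and black marks unirradiated groups. Late Atp5b stands above the unirradiated arrays in the induced fibrosarcoma and mca4 and below them in nfsa, and Uqcr10 falls with time, also between unirradiated mmca of day 1 and day 9.

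In the ATP synthase, 2 of 16 genes rose and 10 fell in the induced fibrosarcoma, 3 rose and 4 fell in mca4, 3 rose and 5 fell in nfsa, and 0 rose and 8 fell in mmca. The share that fell was below that of all genes in mca4 (34.7%) and in nfsa (35.0%). Atp5b, the catalytic beta subunit, had the largest rise in the induced fibrosarcoma and mca4 and a fall in nfsa. Unirradiated the induced fibrosarcoma read 4.37 and 4.04, and the 9 late arrays read 4.98 to 5.75 with a median of 5.44. Unirradiated mca4 read 3.64 and 4.11, and the 8 late arrays read 4.76 to 5.32 with a median of 5.16. In nfsa the order was the reverse, with 4.79 and 5.37 unirradiated and 3.63 to 4.54 late (median 4.21). In none of these tumours did the arrays overlap. The change was 1.24 ± 0.12 in the induced fibrosarcoma (adjusted p = 5.56e-14), 1.26 ± 0.13 in mca4 (adjusted p = 7.95e-14) and -0.92 ± 0.12 in nfsa (adjusted p = 1.08e-09). The tumours in which it rose had the lower unirradiated values, and their late arrays overlapped in level with those of mmca (4.70 to 5.40). Atp5g2, which encodes the c-ring subunit, fell in nfsa by 0.99 ± 0.12 (adjusted p = 2.39e-11), from 6.51 and 6.63 to a median of 5.50.

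Of the lower members, 31 were shared by the induced fibrosarcoma and mca4, which is 64.6% of the 48 of the induced fibrosarcoma and 88.6% of the 35 of mca4. Over all genes the shares were 72.6% and 82.8%. The 5 members higher in both were Atp5b, Atp5c1, Ndufs1, Sdhb and Sdhd.

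In scc7, which has no unirradiated arrays, day 35 and day 23 after 50 Gy differed in 0 of 79 members by limma, with 4 at an unadjusted p under 0.05, where 1.13% of all genes differed. In nrs1, 0 of 79 members were higher and 33 were lower at day 15 after 50 Gy than at day 8 after 30 Gy (12.8% of all genes differed), with a median of -0.32. Only 2 of these held (5.80% of all genes), 1 of them Ndufaf6 (-0.53 ± 0.12). This count ran from 3 to 61 as single arrays were left out. It was 3, 61 and 6 without replicates 1, 2 and 3 of day 8, and 7 and 8 without replicates 1 and 3 of day 15. The Ndufaf6 call was lost without replicate 1 or 3 of day 8 or replicate 1 of day 15 (adjusted p = 0.0602, 0.0598 and 0.0543).

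**Figure D4:**
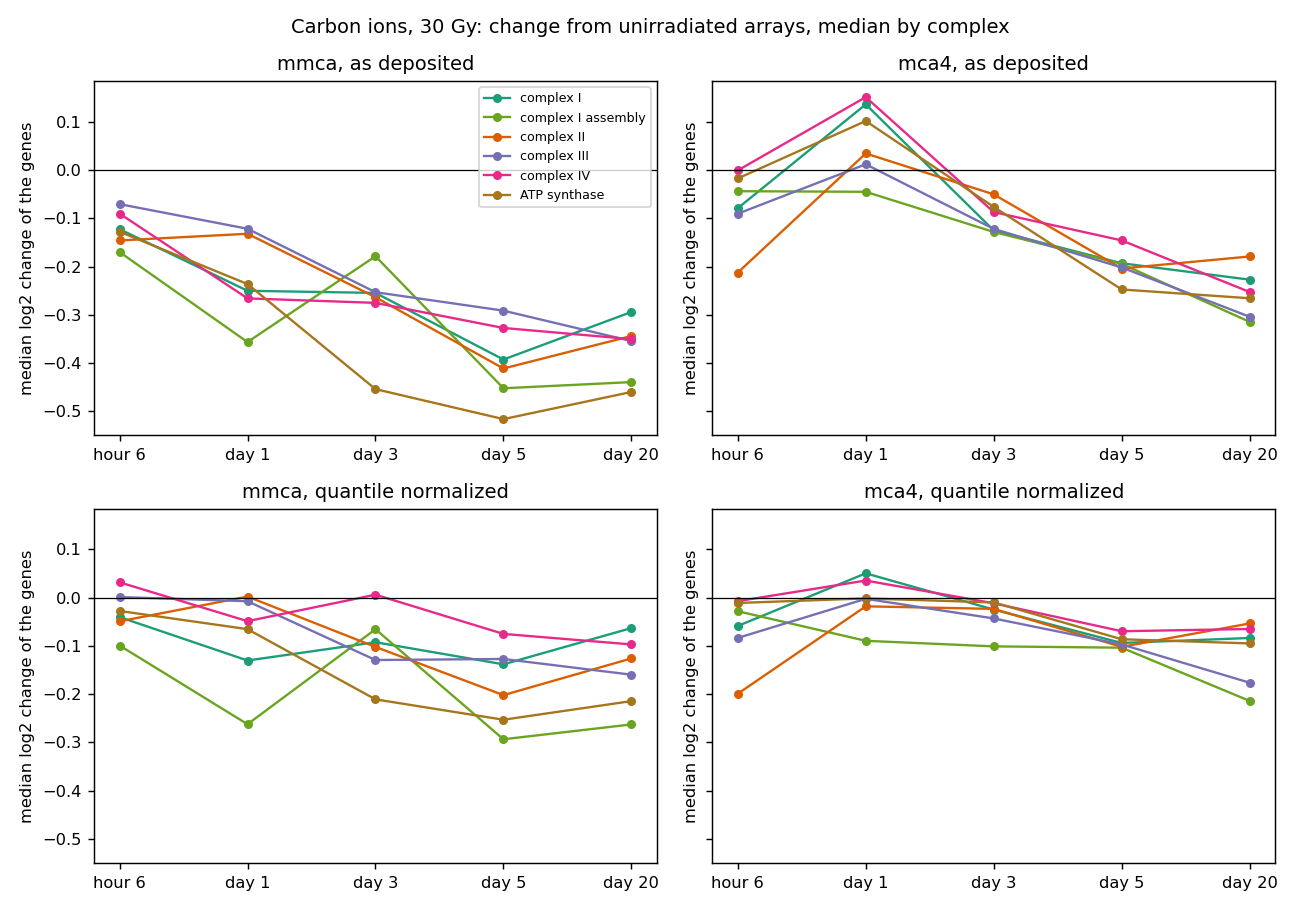
Median log2 change of the members of each complex after 30 Gy of carbon ions in mmca and mca4, irradiated minus unirradiated arrays, at hour 6 and days 1, 3, 5 and 20, as deposited (top) and after quantile normalization (bottom); times are equally spaced on the axis. As deposited every complex lies below 0 from day 3 on in both tumours, and after quantile normalization the medians lie nearer to 0.

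After carbon ions the number of lower members grew from day 1 to day 20 in both mammary carcinomas, as did the number of lower genes on the whole array. As deposited, the share of lower members was above that of all genes in mmca from day 1 on, and in mca4 it was below it or close to it at every time. Over hour 6 and day 1, 0 of 79 members rose and 6 fell in mmca (7.03% of all genes changed), and 0 rose and 0 fell in mca4 by limma (1.40%, with 4 members at an unadjusted p under 0.05). The mmca count was 3 without unirradiated replicate 1, 1 without unirradiated replicate 2, and 3 without replicate 1 of day 1. The 3 early falls in mmca that held (4.51% of all genes) were those of the complex I assembly factors Ndufaf4, Ndufaf5 and Ndufaf6. Ndufaf6 fell by 0.64 ± 0.13 (adjusted p = 6.64e-04) and kept its call without any 1 array. In mmca 1 member was lower at hour 6 (2.11% of all genes were lower), 10 at day 1 (3.56%), 29 at day 3 (20.2%), 43 at day 5 (32.3%) and 46 at day 20 (36.7%). In mca4 these counts by limma were 0 (0.942%), 0 (0.448%), 3 (9.31%), 19 (24.6%) and 29 (36.0%), with 5 members higher at day 20. The member median moved from -0.12 at hour 6 to -0.38 at day 5 and -0.35 at day 20 in mmca. In mca4 it moved from -0.05 at hour 6 through 0.11 at day 1 to -0.25 at day 20. All times of a tumour share its unirradiated arrays.

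Over day 3 to day 20, 0 of 79 members rose and 49 fell in mmca, where 57.7% of all genes changed and 36.6% fell. The median was -0.31, against -0.12 for all genes. In mca4, 1 rose and 23 fell (52.6% changed, 31.6% fell), with a median of -0.17 against -0.10. After quantile normalization 21 members fell in mmca with a median of -0.11 (26.9% of all genes fell), and 13 fell in mca4 with a median of -0.09 (26.8%). After it the share of lower members was thus near that of all genes in mmca and below it in mca4. The falls that held were 20 in mmca (47.2% of all genes held in either direction) and 11 in mca4 (45.9%). Without unirradiated replicate 2 the count in mmca was 27, and without unirradiated replicate 1 it was 12 in mca4. The lists shared 21 members, 42.9% of the 49 of mmca and 91.3% of the 23 of mca4, and over all genes 72.4% and 83.7%. The difference in change between mca4 and mmca was tested over all irradiated times together, the early ones included. There the change differed for 0 members by limma, with 15 at an unadjusted p under 0.05 (0.286% of all genes differed). A difference over day 3 to day 20 alone was not tested.

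By complex, counts over day 3 to day 20 are to be read beside the 36.6% of all genes that fell in mmca and 31.6% in mca4. In complex I, 17 of 29 subunits fell in mmca and 9 in mca4, and of the 6 assembly factors 5 fell in mmca and 2 in mca4. Ndufaf6 fell furthest. Its unirradiated arrays read 3.51 and 3.42 in mmca and 3.34 and 3.40 in mca4. In mmca the pairs of arrays read 2.83 and 2.82 at hour 6, 2.54 and 2.54 at day 5, and 2.12 and 2.35 at day 20. In mca4 they read 2.82 and 2.93, then 2.36 and 2.34, then 2.09 and 2.06. No irradiated array overlapped the unirradiated ones. Over day 3 to day 20 Ndufaf6 fell by 0.94 ± 0.12 in mmca (adjusted p = 1.21e-09) and by 0.97 ± 0.12 in mca4 (adjusted p = 7.35e-10). Ndufa5, a subunit of the peripheral arm, fell in mmca by 0.77 ± 0.14 (adjusted p = 2.93e-06), and Ndufs1 fell in mca4 by 0.47 ± 0.12 (adjusted p = 0.00113).

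In complex II, Sdha, the flavoprotein that oxidises succinate, fell in mmca from 6.14 and 6.55 to 5.34 to 5.85 (median 5.66), by 0.70 ± 0.09 (adjusted p = 5.80e-10). In complex III, 4 of 7 genes fell in each tumour. Uqcrfs1 fell from 6.16 and 6.10 to 5.29 to 5.68 in mmca and from 6.02 and 6.14 to 5.39 to 5.73 in mca4, without overlap. Its change was -0.69 ± 0.12 (adjusted p = 1.31e-06) and -0.52 ± 0.12 (adjusted p = 1.78e-04). In complex IV, 7 of 11 genes fell in mmca and 1 in mca4. That 1 gene was Cox7a2l, a factor that joins complexes III and IV (-0.53 ± 0.11, adjusted p = 4.56e-05).

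In the ATP synthase, 12 of 16 genes fell in mmca and 6 in mca4. Atp5b read 5.47 and 5.58 unirradiated in mmca and 4.49 to 5.06 at day 3 to day 20 (median 4.72). In mca4 it read 5.50 and 5.46 and then 4.75 to 5.17 (median 4.98). The arrays did not overlap in either tumour. Atp5b fell by 0.78 ± 0.13 in mmca (adjusted p = 4.61e-07) and by 0.49 ± 0.13 in mca4 (adjusted p = 0.00112). In mca4 this is opposite in sign to its late change after gamma rays, where the unirradiated arrays had read 3.64 and 4.11. The difference between the beams was not tested. Atp5a1 fell in mmca by 0.72 ± 0.09 (adjusted p = 1.09e-09), and Atp5g2 by 0.85 ± 0.12 (adjusted p = 1.73e-08). The 8 falls that held in both tumours were Atp5b, Atp5o, Ndufa5, Ndufaf6, Ndufaf7, Ndufb5, Ndufs7 and Uqcrfs1. That of Atp5o, the stalk subunit, was lost in mca4 without unirradiated replicate 1 (-0.30, adjusted p = 0.156).

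Counts for other lists are given beside the share of all genes that fell over the same days, 36.6% in mmca and 31.6% in mca4. Of 70 mitochondrial ribosomal proteins, 54 fell in mmca and 43 in mca4, with 0 higher in each. Of 15 citrate cycle genes, 14 fell in mmca and 8 in mca4, with 1 higher in mca4. Of 13 regulators of oxidative metabolism, 10 fell in each. Of 13 glycolysis genes, 12 fell in mmca and 9 in mca4. At the same times 9 of 9 macrophage genes and 5 of 5 genes of T and NK cells rose in each tumour. The mean macrophage level was 4.97 to 5.96 in mmca against 4.01 and 4.10 unirradiated, and 4.94 to 6.30 in mca4 against 3.93 and 3.99. The part of these cells in the members' falls was not tested.

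From day 5 to the last carbon time (day 20, or day 42 in scc7), over the mean of the induced fibrosarcoma, nfsa, scc7 and nrs1, 44 of 79 members rose and 2 fell, where 56.5% of all genes changed. The median was 0.19, against 0.08 for all genes, and 11 rises and 1 fall held (47.2% of all genes). Singly, the rises were most numerous in nrs1, with 58 members higher and 0 lower (35.7% of all genes changed) and a median of 0.51, or 0.22 after quantile normalization. In the induced fibrosarcoma, 11 rose and 5 fell (44.9%), in nfsa 4 rose and 0 fell (19.9%), and in scc7 4 rose and 5 fell (32.5%). Ndufaf7, a methyltransferase that acts in complex I assembly, rose by 0.43 ± 0.04 over the 4 tumours (adjusted p = 2.55e-13), and Sdha by 0.32 ± 0.06 (adjusted p = 1.12e-06). These SEs rest on arrays within groups and not on the spread among the 4 tumours. With 1 value per group, so that the tumours served as replicates, 0 members were called. In nrs1 Ndufaf6, chosen here after its values were seen, read 2.06 and 2.13 at day 5 and 2.93 and 3.40 at day 20. Of 13 glycolysis genes, 13 rose over the same interval. No unirradiated arrays of these tumours were used for carbon ions.

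**Figure D5:**
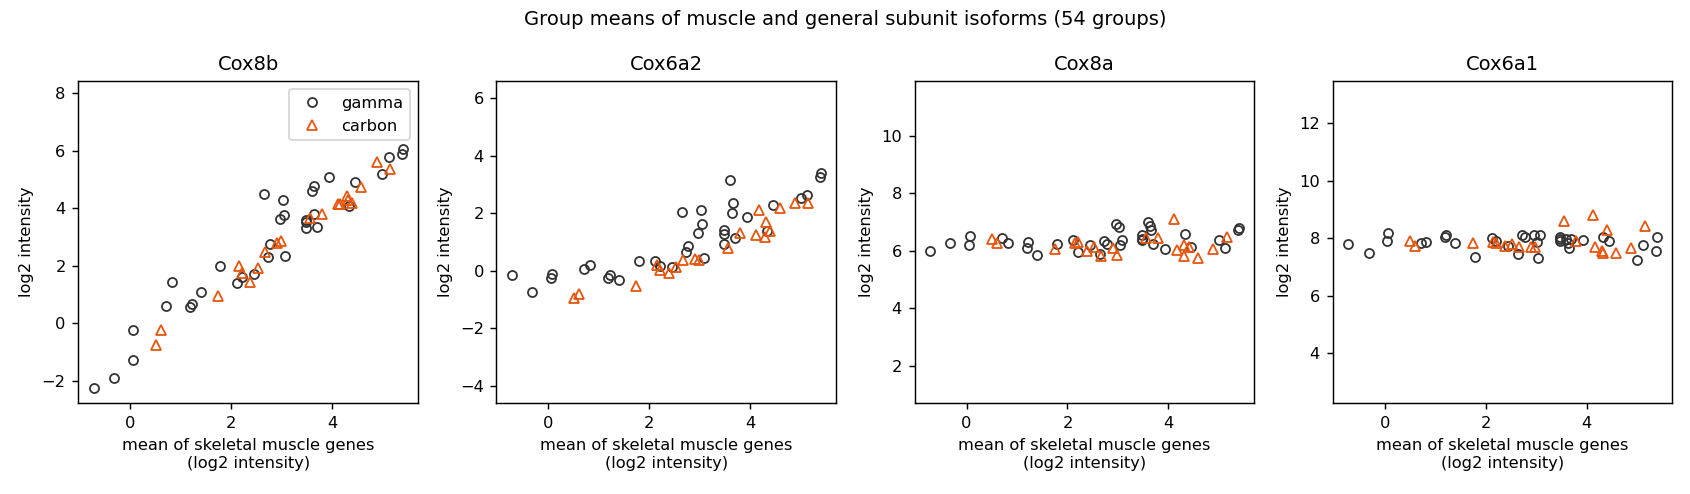
Group means of log2 intensity of the muscle isoforms Cox8b and Cox6a2 and of their general counterparts Cox8a and Cox6a1 against the mean of 15 skeletal muscle genes, 1 point for each of the 54 groups (circles gamma, triangles carbon). Cox8b (r = 0.96) and Cox6a2 (r = 0.86) rise along the axis, and Cox8a (r = 0.18) and Cox6a1 (r = 0.03) stay level.

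The isoforms known from heart and muscle followed the muscle genes of the samples. Over the 54 groups, which share arrays and normalization, the correlation with the mean of 15 skeletal muscle genes was 0.96 for Cox8b, 0.86 for Cox6a2 and 0.55 for Cox7a1. It was 0.18 for Cox8a, 0.03 for Cox6a1 and -0.03 for Cox7a2, their general counterparts. Group means ran from -2.25 to 6.05 for Cox8b and from 5.77 to 7.12 for Cox8a. In mmca Cox8b read -2.19 and -2.32 unirradiated at day 1. It read -0.23 and -0.23 at 30 Gy, 4.39 and 4.62 at 50 Gy, and -1.88 and -1.89 at 70 Gy. The 50 Gy pair stood alone, and the muscle mean of the mmca arrays was -0.81 and -0.64 unirradiated and -0.34 to 2.66 after irradiation. Cox8b rose there by 3.05 ± 0.75 over the 3 doses (adjusted p = 0.00111). Its unirradiated values lie below the mean of Ndufc2 (-1.38), a member too dim to test, so the size of the rise is uncertain.

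Late in the induced fibrosarcoma Cox6a2 read 2.96 and 3.30 unirradiated and -0.34 to 2.65 after irradiation (median 1.02), and fell by 2.19 ± 0.45 (adjusted p = 1.86e-05). The muscle mean was 3.53 and 3.67 unirradiated and -0.36 to 5.48 after irradiation. Late in mmca Cox8b rose by 2.62 ± 0.75 (adjusted p = 0.00349), which was lost without unirradiated day 9 replicate 2 (1.74, adjusted p = 0.192). There 7 of 15 muscle genes rose. Within a group Cox8b differed between arrays by a median of 0.07 at gamma day 1, 0.20 in the carbon groups and 2.12 in the later gamma groups, with a largest difference of 4.04. Cox8b was thus close between arrays of a group in the first kinds and far apart in the later gamma groups. The SEs given for Cox8b pool the spread of all groups, so they do not measure that of the day 1 arrays alone. Cox4i2 did not follow the muscle genes (r = 0.09), nor did Ndufa4l2, a relative of a complex IV subunit known to respond to low oxygen (r = 0.13), whose group means ran from 3.14 to 4.47.

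Across the 54 groups most members varied together. The members whose group means were most like the median of all members were Atp5o (r = 0.88), Atp5k (r = 0.87) and Ndufa7 (r = 0.87). The least like it were Ndufs1 (r = -0.41), Atp5b (r = -0.21) and the assembly factor Ndufaf1 (r = -0.11). Of the 100 genes most like the member median, 19 were members, and the other genes nearest to it were Polr1d (r = 0.89), Mrpl17 (r = 0.89) and Elp5 (r = 0.87). Each member is itself part of the member median, so its likeness to that median is in part built in. The number of members among the 100 genes is therefore no test of whether they vary together. These correlations are descriptions over groups that share normalization, and they include the shift of bright genes with dose.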

How the data were processed

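Values were the linear intensities of 1-colour arrays (Cy5, total RNA) as deposited by the authors. Array medians were alike, and how the arrays had been scaled is not given in the sources used here. Probes were named through GEO's platform annotation: 21615 probes had 1 symbol, 681 several and 13931 none. The floor for low values was 0.1269, the 5th percentile of those above 0. Intensities were then put on the log2 scale, with no imputation. Genes whose mean was under the 20th percentile were left out. A model of 54 group means was fitted with limma 3.58.1 in R 4.3.3 (67 residual degrees of freedom), and p-values were adjusted by Benjamini-Hochberg over all genes tested, with a threshold of 0.05. All adjusted p-values are from this limma fit. The step was tested on simulated data.

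The members and lists were chosen with earlier results of these data known. Genes named were up to 4 of the largest called rises and falls of a comparison, fixed anchor subunits of each complex, the tissue isoforms with their partners, and the members most and least like the member median. Same-numbered arrays of carbon mca4 deviated together in 15 of 15 pairs of groups (lowest r = 0.12). The replicate block left its counts of 0 early and 24 late calls as they were. In carbon mmca the median r over 15 pairs was 0.28 (lowest -0.0038), above the median of 0.19 in carbon mca4. No block was fitted within carbon mmca alone. Alternatives were quantile normalization, no dim filter, another floor, genes with values on every array, no trend, 1 experiment alone, the replicate block, 1 value per group and leaving out each array.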

Additional observations from a re-analysis of the deposited data

Results flagged for a closer look

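The change at day 1 after gamma rays differed between the 4 tumours for 35 of 77 members, where 55.9% of all genes differed. Those with the largest moderated F were Cox5a (24.7), Uqcrc1 (18.9), Ndufa11 (17.1) and Cox4i2 (13.6). Cox5a and Ndufa11 rose in mmca (0.69 and 0.84), and Uqcrc1 and Cox4i2 fell in the induced fibrosarcoma (-0.84 and -1.09) and in mca4 (-0.81 and -1.26). Each tumour has 2 unirradiated arrays, which enter all 3 doses. Without irradiation, Cox5a was also called higher in mmca at day 9 than at day 1.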

How the results depend on the processing

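Of 222 changes of named members, 138 kept their sign and call under every alternative other than 1 value per group, and 93 lost the call when at least 1 array was left out. The alternative of 1 value per group applied only to the comparisons over 4 tumours. Under it 15 named changes kept sign and call, and 33 kept the sign but lost the call. Counts of called members moved by over 1.5 times as follows. Under quantile normalization they were 38 for mmca at day 1, 27 for 70 against 30 Gy, 23 for unirradiated mmca, 3 for nrs1, 22 for late carbon mmca, 2 for early carbon mca4, 17 for last carbon time against day 5, and 0 for unirradiated carbon. Fixed on probes with a value on every array, a form added after seeing the data, they were 32, 33, 17, 3, 23, 3, 20 and 0, with 21 for nfsa at day 1 and 14 for late mmca. With arrays of 1 experiment alone they were 8 for nfsa at day 1, 17 for nrs1, 17 for early carbon mmca, 2 for early carbon mca4, 4 for the difference of carbon changes and 4 for unirradiated carbon. Without the dim filter early carbon mca4 gave 1. With 1 value per group the day 1 mean gave 4, 70 against 30 Gy 44, and last carbon time 0. The replicate block gave 1 for scc7, where the arrays share only a number, and in carbon mca4 changed no count. Subtracting the unirradiated mmca change was also added after seeing the data.

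Signs reversed between 70 and 30 Gy under quantile normalization for Ndufa9 (0.054), Sdha (0.22), Uqcrfs1 (0.10), Cox5b (0.029) and Atp5a1 (0.39). In the fixed form they reversed for Sdha (0.16), Uqcrfs1 (0.036) and Atp5a1 (0.33). Cox4i1 reversed at the last carbon time (-0.012 and -0.021). The cause was not tested.

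With 1 array left out, counts ran from 25 to 31 for the day 1 mean, 16 to 30 for the induced fibrosarcoma, 11 to 22 for mmca, 1 to 11 for nfsa, 17 to 29 for mca4, 26 to 39 for the difference between tumours and 63 to 68 for 70 against 30 Gy. Late they ran from 33 to 58 for the induced fibrosarcoma, 5 to 28 for mmca, 27 to 42 for nfsa and 31 to 50 for mca4. They ran from 3 to 5 for unirradiated mmca, 0 to 0 for scc7, 3 to 61 for nrs1, 35 to 44 for mca4 against mmca and 27 to 34 for nfsa against the induced fibrosarcoma. With carbon they ran from 1 to 6 for early mmca, 0 to 0 for early mca4, 27 to 51 for late mmca, 12 to 24 for late mca4, 0 to 1 for the difference of changes, 0 to 1 for unirradiated arrays and 42 to 49 for the last time. Groups of 2 or 3 arrays limit the precision.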
